A study of Mus musculus with 12 samples.

Results

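The TAK1 complex and the MAP kinases it feeds were described through 9 genes: Map3k7, which encodes the kinase TAK1, its partners Tab1, Tab2 and Tab3, the parallel kinase gene Map3k5 (ASK1), and the MAP kinase genes Mapk8 (JNK1), Mapk9 (JNK2), Mapk14 (p38α) and Mapk3 (ERK1). They were found by gene name among the 53465 genes of the deposited count matrix, where each had 1 row, and 9 of 9 passed the filter on low counts that left 16101 genes to be tested.

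The study asked how the loss of the protease ADAM17 from cardiomyocytes alters the response of the heart to doxorubicin, an anthracycline used against cancer that damages the heart. RNA from 12 left ventricles was sequenced, with 3 mice to a group and 4 groups. Mice of the A17fl/fl + NS group carried a floxed Adam17 gene (ADAM17flox/flox in the labels) without Cre and received normal saline. A17fl/fl + DOX mice had the same genotype and received doxorubicin at 5 mg/kg into the peritoneum on days 0, 7, 14 and 21, 20 mg/kg in all. A17α-MHCKO + NS and A17α-MHCKO + DOX mice carried the same floxed alleles together with Cre under the α-MHC promoter, which removes exon 2 of Adam17 in cardiomyocytes only, and received saline or the same doxorubicin course. By the study's methods the mice had a C57BL/6J background and the groups were littermates divided at random. In the study's model the mice were male, injections began at 8 weeks of age, and hearts were taken 4 weeks after the last injection. Each library was made from 1 mouse, and the p-values below measure the spread between these 12 animals.

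TAK1 is a MAP kinase kinase kinase that sits below the receptors for TNF, interleukin-1, Toll-like ligands and TGF-β. TAB1 binds TAK1 and promotes its autophosphorylation, while TAB2 and TAB3 bring it to ubiquitin chains built by TRAF proteins. TAK1 and ASK1, which is held inactive by thioredoxin and released by oxidative stress, both phosphorylate MAP kinase kinases that in turn phosphorylate JNK and p38, the stress-activated MAP kinases, whereas ERK1 mostly carries growth-factor signals. In the heart these kinases take part in hypertrophy, cell death and the response to injury. The cascade is switched on by phosphorylation, which read counts do not measure: the values below are mRNA levels.

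The MAP kinases are activated on a pair of residues, a threonine and a tyrosine 1 residue apart, in the activation segment, and the coding sequences of that segment are shown here because they mark the step that lies outside an mRNA measurement and because they show how far the paralogous genes can be told apart by reads. The sequences run 5′ to 3′ and were read from the longest open reading frame of GENCODE M21 transcripts (GRCm38), with the threonine, middle and tyrosine codons in capitals.
Mapk8: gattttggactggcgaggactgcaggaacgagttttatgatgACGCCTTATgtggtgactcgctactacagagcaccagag
Mapk9: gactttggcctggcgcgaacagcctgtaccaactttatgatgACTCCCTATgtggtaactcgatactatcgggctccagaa
Mapk14: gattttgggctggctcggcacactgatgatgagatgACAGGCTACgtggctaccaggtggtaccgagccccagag
Mapk3: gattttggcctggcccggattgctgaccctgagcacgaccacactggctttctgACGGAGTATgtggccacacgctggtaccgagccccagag
The middle codon encodes proline in both JNK genes, glycine in Mapk14 and glutamate in Mapk3. Mapk8 and Mapk9, the closest pair, were identical at 61 of the 81 bases of this segment (75.3%).

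TAB2 and TAB3 hold a C-terminal zinc finger that binds ubiquitin chains, and its coding sequence is shown for the same reason, with the 4 cysteine codons that hold the zinc in capitals.
Tab2: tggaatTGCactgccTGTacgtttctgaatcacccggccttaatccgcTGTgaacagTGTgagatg
Tab3: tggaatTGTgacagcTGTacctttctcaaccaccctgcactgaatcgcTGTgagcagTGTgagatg
These stretches were identical at 50 of 66 bases (75.8%). Over all annotated transcripts, none of the 9 genes shared a run of 50 bases with another of the 9, so that reads of this length separate the paralogs. Tab1, Tab3, Map3k5, Mapk9 and Mapk14 shared no 50-base run with transcripts of any other gene. Map3k7 shared 4.48% of its 50-base runs with other genes on the same strand, nearly all with the pseudogene Gm8188, which had 0 to 13 counts per library against 606 to 1220 for Map3k7. Within the span of Mapk8 lies the pseudogene Gm49037 on the same strand, outside the exons of Mapk8, with 14 to 76 counts per library. It shared no 50-base run with Mapk8 transcripts, and how the counting treated reads from that stretch is not given.

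The genes lie at these places in GENCODE M21 on GRCm38, an older build than the GRCm39 that the submitters' processing notes name. The deposited matrix gives no coordinates, and each count covers the whole gene. Map3k7 (ENSMUSG00000028284) lies at chr4:31964097-32023467 on the plus strand, Tab1 (ENSMUSG00000022414) at chr15:80133127-80161707 on the plus strand, Tab2 (ENSMUSG00000015755) at chr10:7905653-7956230 on the minus strand and Tab3 (ENSMUSG00000035476) at chrX:85574022-85634469 on the plus strand. Map3k5 (ENSMUSG00000071369) lies at chr10:19934472-20142753 on the plus strand. Of the MAP kinase genes, Mapk8 (ENSMUSG00000021936) lies at chr14:33377898-33447158 on the minus strand, Mapk9 (ENSMUSG00000020366) at chr11:49846751-49886421, Mapk14 (ENSMUSG00000053436) at chr17:28691329-28748406 and Mapk3 (ENSMUSG00000063065) at chr7:126759601-126765819, these on the plus strand. The span of Mapk14 overlaps that of another protein-coding gene, AC170998.1, on the same strand, which touches no exon of Mapk14.

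The libraries held 15950717 to 21725076 counts. The targeted gene Adam17 read 43.6 to 70.9 CPM (read counts scaled to a common library size with the trimmed mean of M-values, TMM) in the 6 A17fl/fl libraries and 27.9 to 36.8 CPM in the 6 A17α-MHCKO libraries, without overlap. A17fl/fl + NS replicate 1 stood apart from the other 11 libraries. Its neutrophil markers summed to 2406 CPM against 5.62 and 26.7 CPM in the other A17fl/fl + NS libraries and at most 67.2 CPM elsewhere, and its immediate-early genes to 1223 CPM against at most 360 CPM elsewhere. Its fibroblast markers summed to 8687 CPM (at most 2937 CPM in the other 11), its macrophage markers to 2509 CPM (at most 1030 CPM) and its red cell markers to 3602 CPM (at most 1932 CPM). Values without it are given beside several of the calls and medians that it moved. Replicates 2 and 3 of A17fl/fl + NS also differed from each other. Atrial markers summed to 7588.5 and 342 CPM in them, adipocyte markers to 87.8 and 0.751 CPM and mesothelial markers to 132 and 5.76 CPM. These lists varied within the other groups too, atrial markers for example from 1804 to 4943 CPM in A17fl/fl + DOX. Cardiomyocyte markers, 12 of 12 detected, summed to 25564 CPM in A17fl/fl + NS replicate 1 and to 39985 to 61897 CPM in the other 11 libraries. Fewer cells of a type and less RNA per cell cannot be told apart in these bulk samples.

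The levels of the genes were compared as FPKM, fragments scaled by gene length and by the library's counted fragments, because longer genes collect more reads. Mapk3 had the highest level, with 19.1 ± 1.54 FPKM (mean ± SD over 12 libraries), and lay above Mapk14 in 12 of 12 libraries. Mapk14 (9.55 ± 3.70 FPKM), Tab2 (7.78 ± 1.23 FPKM), Tab1 (7.71 ± 1.89 FPKM), Map3k7 (6.91 ± 1.19 FPKM) and Map3k5 (6.30 ± 1.13 FPKM) followed, and each step between neighbours in this order was smaller than the larger of their SDs. Mapk8 (1.37 ± 0.128 FPKM), Mapk9 (1.29 ± 0.110 FPKM) and Tab3 (1.26 ± 0.209 FPKM) formed the lowest group. Map3k5 lay above Mapk8 in 12 of 12 libraries, while the order within the lowest 3 genes was within their spread. Of the ubiquitin-binding partners Tab2 was the higher in 12 of 12 libraries, with a ratio of Tab3 to Tab2 between 0.0872 and 0.249. These levels depend on the gene lengths that the authors used, which are not given apart from the FPKM.

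**Figure D1:**
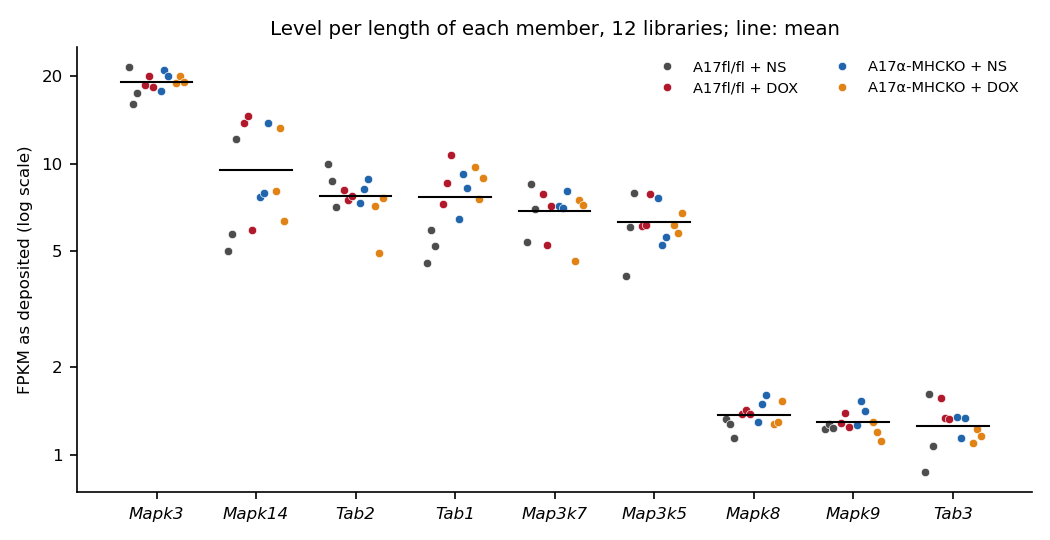
Deposited FPKM (log axis) of the 9 genes, ordered by mean level. Each point is 1 of 12 libraries, coloured by group, and the black line is the mean over 12 libraries. Mapk3 stands at 16.1 to 21.5 FPKM, a middle group of 5 genes overlaps, and Mapk8, Mapk9 and Tab3 stay below 2 FPKM.

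The genes differed in how much they varied between mice of the same group. Mapk8 was the steadiest, with an SD of 0.07 on the log2 CPM scale within groups, and only 0.671% of the 2831 genes at a like level varied less. Mapk9 and Mapk3 were also steady, each with an SD of 0.10. Map3k5, at 0.36, and Map3k7, at 0.32, varied more, and 83.5% and 74.0% of genes at a like level varied less than they did. Mapk14 varied most, with an SD of 0.64, more than 96.8% of the 2426 genes at its level.

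Tab1, the activating partner of TAK1, was the member whose values differed most between groups. Its 3 A17fl/fl + NS libraries read 12.7, 17.4 and 16.7 CPM, in order of replicate. The A17fl/fl + DOX libraries read 21.4, 25.1 and 31.3 CPM. All libraries of doxorubicin-treated A17fl/fl mice lay above all saline ones, and the means were 25.9 ± 4.96 and 15.6 ± 2.55 CPM (SD, 3 mice each). A17α-MHCKO + NS libraries read 19.8, 25.4 and 22.5 CPM, and A17α-MHCKO + DOX libraries 29.6, 22.9 and 26.4 CPM. The knockout mice thus lay above A17fl/fl + NS with either treatment, and their saline and doxorubicin values overlapped.

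**Figure D2:**
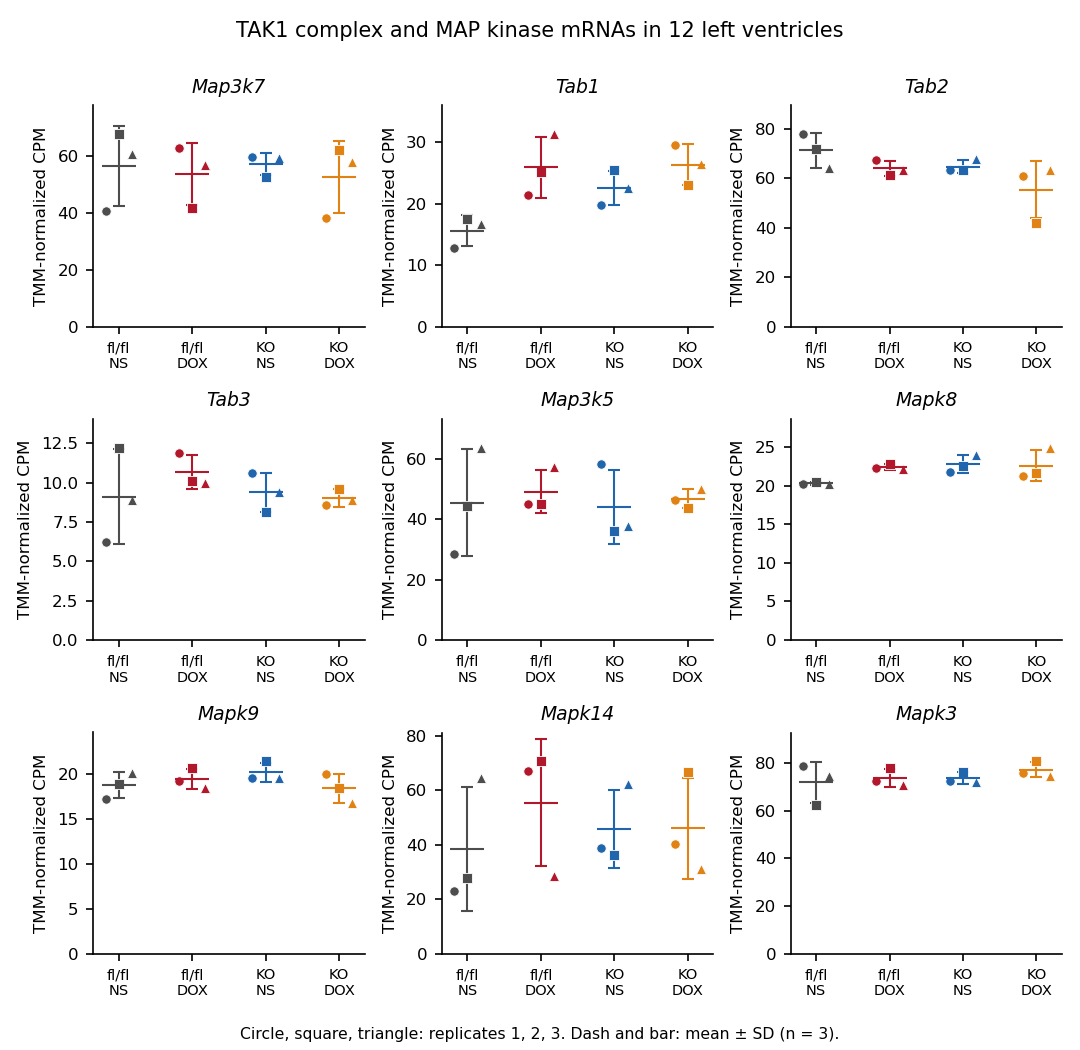
TMM-normalized CPM of each gene by group, with 1 point per mouse (circle, square and triangle are replicates 1, 2 and 3), a dash for the group mean and a bar for its SD over 3 mice, and KO standing for A17α-MHCKO. Tab1 is lowest in A17fl/fl + NS, at 12.7 to 17.4 CPM, with 21.4 to 31.3 CPM after doxorubicin, and Mapk14 splits into high and low libraries within every group.

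The effect of doxorubicin in A17fl/fl mice was tested with edgeR's quasi-likelihood test on the counts of all 12 libraries. Tab1 was higher by 0.73 on the log2 scale (SE 0.18, 95% interval 0.33 to 1.13), with an unadjusted p of 0.00193 and an adjusted p of 0.334 in edgeR. It was the 91st smallest p among all tested genes. Thus 1 of 9 members had an unadjusted p under 0.05, where 10.7% of all 16101 tested genes had one, and 0 of 9 had an adjusted p under 0.05, where 0.0% of tested genes had one. DESeq2 gave Tab1 an adjusted p of 0.0472, and the adjusted p ranged from 0.0472 to 0.791 over 11 alternatives, in each of which the unadjusted p stayed below 0.05. Without A17fl/fl + NS replicate 1 the difference was 0.60 with an unadjusted p of 0.00684 in edgeR. The limits that the study set on fold change, p and FPKM were met by 0 of 9 members and 2.82% of tested genes.

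Cell type markers also differed between the saline and doxorubicin groups of A17fl/fl mice, and their part in the Tab1 difference was not tested. Cardiomyocyte markers summed to 25564 to 56805 CPM in A17fl/fl + NS, 57110 to 61897 CPM in A17fl/fl + DOX, 39985 to 50294 CPM in A17α-MHCKO + NS and 52703 to 56558 CPM in A17α-MHCKO + DOX. Of those 12 markers, 3 had an unadjusted p under 0.05 and a higher level after doxorubicin in A17fl/fl mice. Without A17fl/fl + NS replicate 1 there was 1 higher and 1 lower. Over all tested genes, in either direction and with all 12 libraries, 10.7% had such a p for doxorubicin in A17fl/fl. The share was 6.42% for doxorubicin in A17α-MHCKO and 10.1% for the genotype after saline. Shares without that library are not given. In A17α-MHCKO mice 5 of 12 cardiomyocyte markers had such a p and a higher level after doxorubicin. For the genotype after saline 0 of 12 had such a p, and 2 of 12 were lower without that library. Endothelial markers had 2 of 7 higher for doxorubicin in A17fl/fl and 2 of 7 for the genotype after saline, each with and without that library. For doxorubicin in A17α-MHCKO 0 of 7 were higher and 1 of 7 lower. Their sums were 1225 to 2122 CPM in A17fl/fl + NS, 1752 to 1902 CPM in A17fl/fl + DOX, 1620 to 1997 CPM in A17α-MHCKO + NS and 1891 to 2116 CPM in A17α-MHCKO + DOX, which overlapped. T and NK cell markers, of which 3 of 8 were higher at that threshold for doxorubicin in A17fl/fl with and without that library, summed to 2.18 to 6.57 CPM in A17fl/fl + NS, 9.001 to 12.7 CPM in A17fl/fl + DOX, 7.02 to 14.7 CPM in A17α-MHCKO + NS and 4.90 to 14.6 CPM in A17α-MHCKO + DOX. For the genotype after saline 2 of 8 were higher, and 1 of 8 without that library. For doxorubicin in A17α-MHCKO 0 of 8 were higher or lower. Neutrophil markers had 6 of 6 tested genes lower at that threshold after doxorubicin in A17fl/fl mice with that library and 0 of 6 without it. In these 4 lists 0 genes were at 0 in all libraries of a group.

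The core kinase and the other partners had values that overlapped between saline and doxorubicin. Map3k7 read 40.6, 67.6 and 60.8 CPM in A17fl/fl + NS and 62.8, 41.5 and 56.8 CPM in A17fl/fl + DOX. In A17α-MHCKO + NS it read 59.6, 52.7 and 59.3 CPM, and in A17α-MHCKO + DOX 38.1, 62.1 and 57.7 CPM. A low library, near 40 CPM, was present in 3 of the 4 groups, and no group was set apart. The log2 difference for doxorubicin was -0.07 in A17fl/fl (95% interval -0.58 to 0.44) and -0.12 in A17α-MHCKO (-0.63 to 0.39). Neither interval reached a doubling or a halving.

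Tab2 read 77.7, 71.9 and 64.0 CPM in A17fl/fl + NS and 67.2, 61.4 and 63.3 CPM in A17fl/fl + DOX, which overlapped. It read 63.2, 63.4 and 67.6 CPM in A17α-MHCKO + NS, and 60.8, 42.0 and 63.5 CPM in A17α-MHCKO + DOX, where replicate 2 was the lowest of all 12 libraries. Its log2 differences were negative in 4 of 4 pairwise comparisons, from -0.22 to -0.14, with every 95% interval spanning 0. Tab3, the low-level paralog, read 6.23, 12.2 and 8.90 CPM in A17fl/fl + NS and 11.9, 10.1 and 9.94 CPM in A17fl/fl + DOX. It read 10.6, 8.12 and 9.42 CPM in A17α-MHCKO + NS and 8.56, 9.62 and 8.87 CPM in A17α-MHCKO + DOX. The doxorubicin-treated knockout libraries lay below the doxorubicin-treated A17fl/fl libraries without overlap, by 0.24 on the log2 scale, with an interval from -0.73 to 0.25 and an unadjusted p of 0.309 in edgeR.

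Map3k5, which encodes the oxidant-responsive kinase ASK1, read 28.5, 44.4 and 63.7 CPM in A17fl/fl + NS and 45.1, 45.0 and 57.4 CPM in A17fl/fl + DOX. In A17α-MHCKO + NS it read 58.2, 36.0 and 38.0 CPM, and in A17α-MHCKO + DOX 46.6, 43.7 and 50.1 CPM. The saline groups of both genotypes spanned the doxorubicin groups. Its log2 difference for doxorubicin was 0.11 in A17fl/fl (95% interval -0.47 to 0.69) and 0.09 in A17α-MHCKO (-0.50 to 0.67).

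The JNK genes had narrow ranges. Mapk8 read 20.3, 20.5 and 20.2 CPM in A17fl/fl + NS and 22.3, 22.8 and 22.1 CPM in A17fl/fl + DOX. It read 21.8, 22.5 and 24.0 CPM in A17α-MHCKO + NS and 21.2, 21.6 and 24.9 CPM in A17α-MHCKO + DOX. All 9 libraries outside A17fl/fl + NS lay above the 3 libraries of that group, by a small margin: the doxorubicin effect in A17fl/fl was 0.14 (95% interval -0.10 to 0.38) with an unadjusted p of 0.225 in edgeR. Mapk9 read 17.2, 18.9 and 20.1 CPM in A17fl/fl + NS and 19.2, 20.6 and 18.4 CPM in A17fl/fl + DOX, and 16.8 to 21.4 CPM in the knockout libraries, with overlap in each comparison. Its pairwise log2 differences lay between -0.13 and 0.10.

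Mapk14, the p38α gene, had the widest range of the members, and the spread cut across the groups. It read 23.1, 27.7 and 64.7 CPM in A17fl/fl + NS, and 67.2, 70.7 and 28.5 CPM in A17fl/fl + DOX. It read 38.9, 36.1 and 62.3 CPM in A17α-MHCKO + NS, and 40.3, 66.9 and 31.2 CPM in A17α-MHCKO + DOX. Of the 12 libraries 7 lay at 23.1 to 40.3 CPM and 5 at 62.3 to 70.7 CPM, with none between, and each group held 1 or 2 of the high libraries. The doxorubicin effect was 0.53 in A17fl/fl with an interval from -0.46 to 1.52, so a doubling lay inside it, and 0.01 in A17α-MHCKO with an interval from -0.98 to 1.001. When A17fl/fl + NS replicate 3 was left out, the effect in A17fl/fl was 1.13 with an unadjusted p of 0.0245 in edgeR and an adjusted p of 0.258. This was the only 1 of 11 alternatives with an unadjusted p under 0.05, and leaving out single libraries gave effects from 0.26 to 1.13.

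Mapk3, the ERK1 gene, read 79.0, 62.5 and 74.7 CPM in A17fl/fl + NS, 72.8, 77.9 and 70.8 CPM in A17fl/fl + DOX, 72.4, 76.6 and 72.4 CPM in A17α-MHCKO + NS and 76.0, 80.9 and 74.9 CPM in A17α-MHCKO + DOX. The groups overlapped in each comparison. Its pairwise log2 differences lay between 0.03 and 0.07, with 95% intervals that ran from -0.22 at the lowest to 0.33 at the highest.

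**Figure D3:**
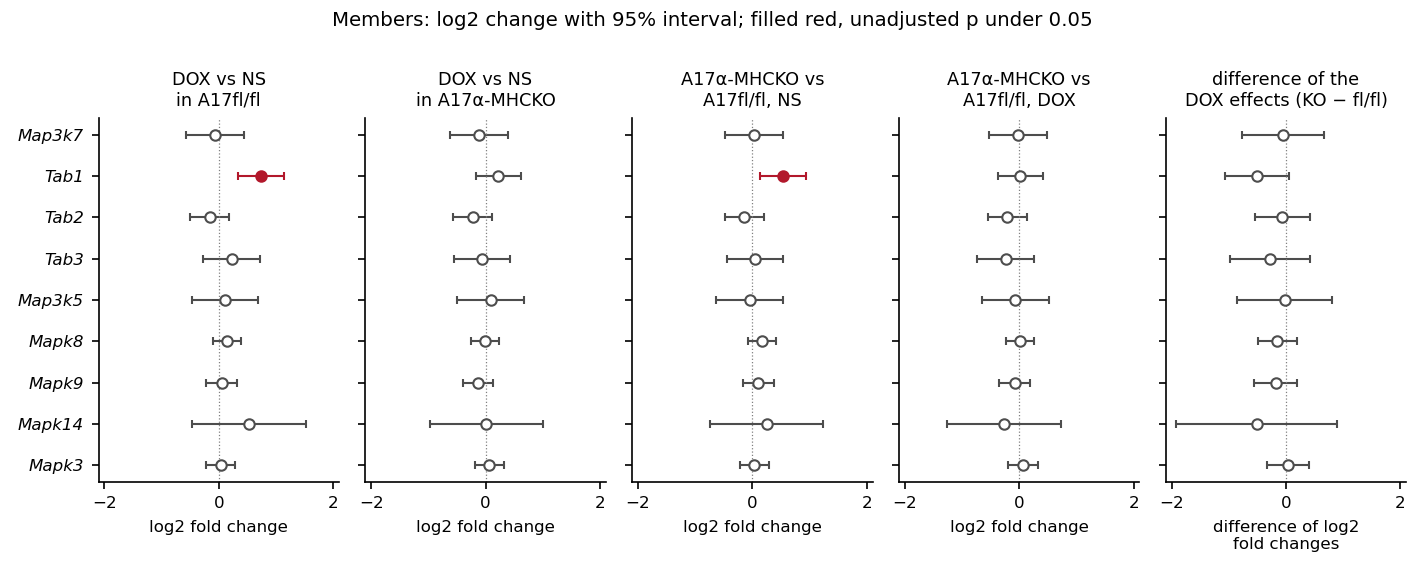
Log2 fold change of each gene (points) with its 95% interval (bars) from edgeR in 4 pairwise comparisons, and the difference between the doxorubicin effects of A17α-MHCKO and A17fl/fl (right panel), with filled red points for an unadjusted p under 0.05 and KO for A17α-MHCKO. Tab1 is the only filled point, at 0.73 for doxorubicin in A17fl/fl and 0.53 for the knockout after saline, and Mapk14 has the widest intervals.

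Over the 9 members the doxorubicin effect in A17fl/fl had a median of 0.11 on the log2 scale, against -0.04 over all tested genes, and 7 of 9 were positive, against 44.5% of tested genes. The median over members was 0.0088 without A17fl/fl + NS replicate 1. The count of positive members was taken with all 12 libraries, and the signs of Map3k7, Map3k5, Mapk9 and Mapk3 changed when single libraries were left out. Values did not overlap between the saline and doxorubicin groups for 2 of 9 members, Tab1 and Mapk8, and for 13.3% of tested genes. The interval of 7 of 9 members lay within a doubling and a halving, the exceptions being Tab1 and Mapk14.

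In A17α-MHCKO mice doxorubicin gave 0 of 9 members an unadjusted p under 0.05 in edgeR, with 6.42% of tested genes below it, 0 of 9 an adjusted p under 0.05 (0.0% of tested genes), 0 of 9 the study's limits (0.658%) and 0 of 9 without overlap (16.9%). DESeq2 likewise placed 0 of 9 below an unadjusted p of 0.05. The largest differences were those of Tab1, at 0.22 (95% interval -0.18 to 0.62), and Tab2, at -0.22 (-0.56 to 0.12). The median over members was -0.01, against 0.00 over tested genes.

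The genotypes were compared after saline and after doxorubicin. After saline, Tab1 was higher in A17α-MHCKO than in A17fl/fl by 0.53 (SE 0.18, 95% interval 0.13 to 0.93), with an unadjusted p of 0.0135 and an adjusted p of 0.355 in edgeR, and in 3 of 3 knockout libraries it lay above every A17fl/fl one. Without A17fl/fl + NS replicate 1 this difference was 0.40 with an unadjusted p of 0.0474 in edgeR, and the adjusted p ranged from 0.125 to 0.920 over 11 alternatives. Counted over members, 1 of 9 had an unadjusted p under 0.05 (10.1% of tested genes), 0 of 9 an adjusted one (0.0186%), 0 of 9 met the study's limits (2.99%), and 2 of 9, Tab1 and Mapk8, did not overlap in CPM (10.9%). The saline libraries of A17fl/fl entered both this comparison and that of doxorubicin in A17fl/fl, so that the low Tab1 values of the same 3 mice stand in both.

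After doxorubicin the log2 differences between genotypes lay between -0.27 and 0.07. The difference of -0.27 was that of Mapk14, with a 95% interval from -1.26 to 0.72, so a halving lay inside it. Tab1 differed by 0.02 (95% interval -0.38 to 0.42), and the smallest unadjusted p of a member was 0.209, for Tab2 at -0.21 (-0.55 to 0.13). Under edgeR 0 of 9 members had an unadjusted p under 0.05 (2.7% of tested genes), 0 of 9 an adjusted one (0.00621%) and 0 of 9 met the study's limits (0.205%), while 1 of 9, Tab3, did not overlap (14.1%). DESeq2 also gave 0 of 9 an unadjusted p under 0.05.

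Whether doxorubicin acted differently in the knockout was tested as the interaction, the doxorubicin effect in A17α-MHCKO minus that in A17fl/fl. For Tab1 it was -0.51 (SE 0.26, 95% interval -1.07 to 0.05), with an unadjusted p of 0.0706 in edgeR, so that the larger effect in A17fl/fl was not shown to differ from that in the knockout. None of the 9 members had an unadjusted p under 0.05 in edgeR, 5.99% of tested genes did, and none had an adjusted one (0.0%). The interaction was positive for 1 of 9 members and 56.3% of tested genes, with a median of -0.15 against 0.06. The median over members was -0.12 without A17fl/fl + NS replicate 1. In 1 of 16 alternatives, the fit without A17fl/fl + DOX replicate 1, the unadjusted p of Tab1 was below the threshold, at 0.0353 in edgeR.

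Ratios between members of a shared function were taken within each library from FPKM, where library size cancels. Tab1 to Map3k7, activator to kinase, stood at 0.846, 0.697 and 0.745 in A17fl/fl + NS and at 0.925, 1.64 and 1.49 in A17fl/fl + DOX. It stood at 0.900, 1.31 and 1.03 in A17α-MHCKO + NS and at 2.1002, 1.001 and 1.24 in A17α-MHCKO + DOX. The A17fl/fl + NS ratios lay below all 9 others. Two-sided exact permutation tests gave p = 0.1 both for doxorubicin in A17fl/fl and for the genotype after saline, the smallest p that 3 mice against 3 allow, and p = 0.5 and p = 0.9 for the other comparisons. There were 5 ratios and 4 comparisons, 20 tests in all, and every adjusted p was 1.0.

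The other ratios overlapped between groups in every comparison. Tab2 to Map3k7 ranged from 0.653 to 1.85, Mapk8 to Mapk9 from 0.927 to 1.37 and Mapk14 to Mapk3 from 0.234 to 0.740. The ratio of the JNK genes was the steadiest, and the smallest exact p over its 4 comparisons was 0.3.

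**Figure D4:**
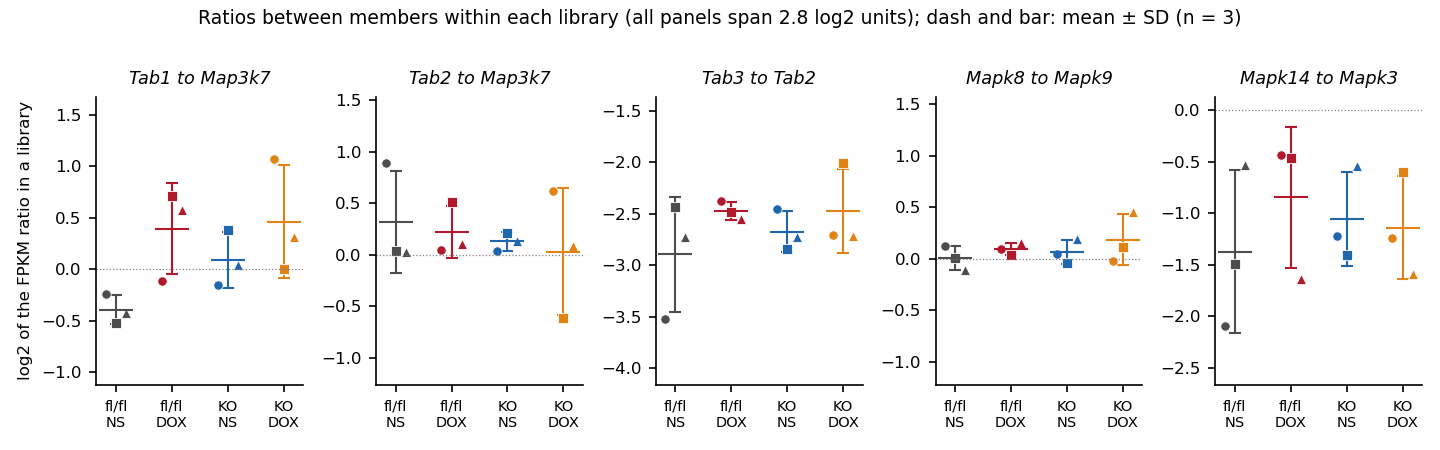
Log2 ratio of the FPKM of a pair of members within each library, by group, with 1 point per mouse, dash and bar for mean and SD over 3 mice, KO for A17α-MHCKO, and axes that span the same number of log2 units. The Tab1 to Map3k7 ratio is below 0 on this scale in 3 of 3 A17fl/fl + NS libraries, from -0.52 to -0.24, and the Mapk8 to Mapk9 ratio is the steadiest.

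Around these 9 genes, 116 further genes of the cascade were listed by role, of which 108 were tested. Doxorubicin in A17fl/fl gave 2 of 108 an unadjusted p under 0.05 with a higher level and 6 of 108 with a lower one, 7.41% in all beside the 10.7% of tested genes. None had an adjusted p under 0.05 in edgeR. Without A17fl/fl + NS replicate 1 there were 5 with a higher and 6 with a lower level. The share of all tested genes is not given for that fit. For doxorubicin in A17α-MHCKO the counts were 5 and 0, 4.63% in all beside 6.42% of tested genes. The genotype comparison after saline gave 0 higher and 10 lower, 9.26% beside 10.1%. Without A17fl/fl + NS replicate 1 there were 1 with a higher and 9 with a lower level, again with no share of all tested genes given. After doxorubicin the genotype comparison gave 3 higher and 1 lower, 3.70% beside 2.7%.

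From each of 8 lists the gene with the smallest p for doxorubicin in A17fl/fl was taken, and none of these had an adjusted p under 0.05. Among the regulators of TAK1 this was Traf3, a TRAF ubiquitin ligase of receptor complexes. It read 12.1, 10.6 and 9.65 CPM in A17fl/fl + NS, 25.1, 20.7 and 22.3 CPM in A17fl/fl + DOX, 19.1, 13.8 and 8.31 CPM in A17α-MHCKO + NS and 13.2, 9.68 and 17.9 CPM in A17α-MHCKO + DOX. The A17fl/fl + DOX libraries lay above all others, the difference in A17fl/fl was 1.07 (SE 0.29), and the unadjusted p was 0.00310 and the adjusted p 0.334 in edgeR. Traf3 was among the genes the study itself drew from these libraries and is not independent evidence. Of the kinases beside TAK1, Map3k8, which encodes the kinase TPL2, differed by -0.98 (SE 0.33, unadjusted p 0.0119 in edgeR), with 14.6 CPM in A17fl/fl + NS replicate 1 and 3.58 to 6.39 CPM in the other 11 libraries. Without that replicate the difference was -0.42 with an unadjusted p of 0.0700 in edgeR. Map3k15, a relative of ASK1, differed by -0.81 (unadjusted p 0.0461 in edgeR) and by -0.57 without that replicate, with an unadjusted p of 0.162 in edgeR, so that this call and that of Map3k8 were lost without it.

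The genes taken from the remaining lists had smaller differences than Traf3, Map3k8 and Map3k15, or few reads in the case of Dusp2. Elk1, a transcription factor that ERK phosphorylates, differed by 0.46 (SE 0.17, unadjusted p 0.0193 in edgeR), with 10.1, 14.9 and 11.97 CPM in A17fl/fl + NS and 15.7, 16.6 and 18.6 CPM in A17fl/fl + DOX, without overlap. The difference of Elk1 was 0.33 without A17fl/fl + NS replicate 1, and its unadjusted p of 0.0614 in edgeR was then above the threshold. The step between TAK1 and the MAP kinases was led by Map2k3, a kinase that activates p38, at -0.26 (unadjusted p 0.0627 in edgeR). The p38γ gene Mapk12, at 0.27, the JNK scaffold gene Mapk8ip1, at 0.49, and the phosphatase gene Dusp2, at -1.31 with 0.564 to 6.29 CPM, had unadjusted p of 0.107, 0.0548 and 0.0576 in edgeR. Without A17fl/fl + NS replicate 1, the library with the 6.29 CPM of Dusp2, these differences were 0.097, 0.26 and -0.22.

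**Figure D5:**
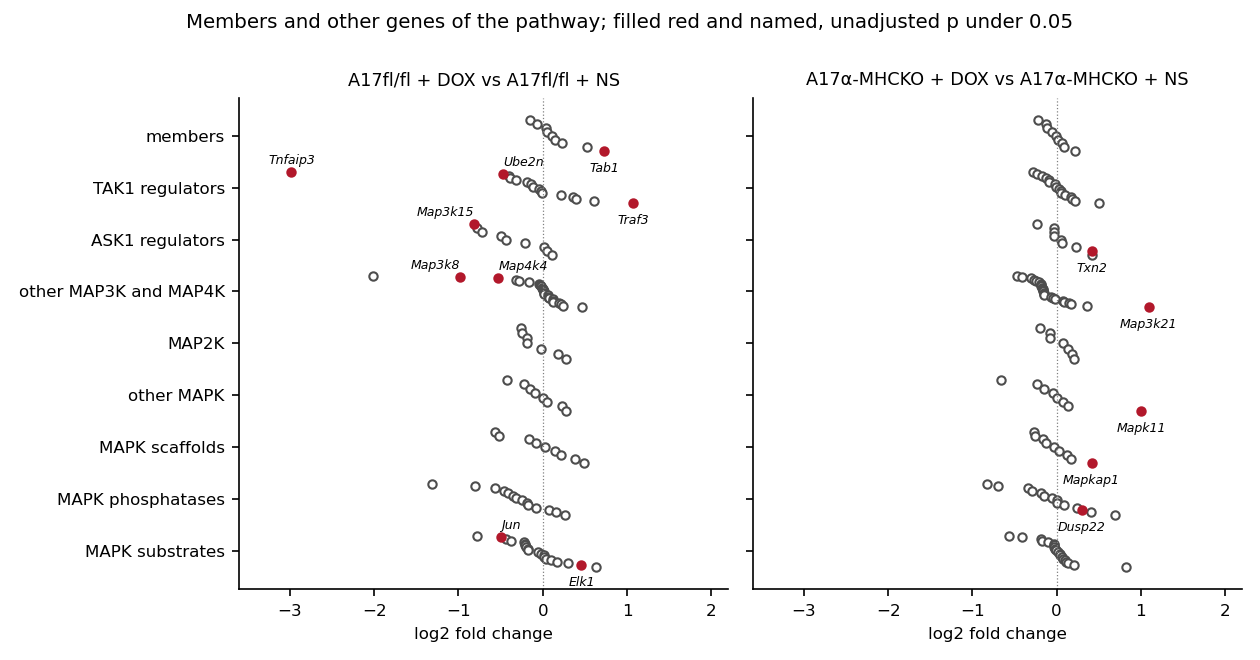
Log2 fold change for doxorubicin against saline in A17fl/fl (left) and A17α-MHCKO (right) for the 9 members (top row) and the 108 tested genes of 8 lists ordered by role. Each point is 1 gene and filled red points with names have an unadjusted p under 0.05; on the left 8 pathway genes are filled and on the right 5, and most genes lie within 1 log2 unit of 0.

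The 12 libraries were also searched for the genes whose log2 CPM was most like that of Map3k7 by Pearson's r, over 16100 other genes. These were Uty (r = 0.91), which read 11.9 to 21.5 CPM over the 12 libraries, Zbtb37 (r = 0.88) and Dopey1 (r = 0.88). Without A17fl/fl + NS replicate 1 the values of r were 0.89, 0.84 and 0.84. By ranks over the 12 libraries (Spearman's rho) the values were lower, at 0.67, 0.78 and 0.76. They describe 12 libraries of 4 groups, in which differences of group, depth and extraction were not separated, and were the highest of many.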

How the data were processed

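RNA sequencing of 12 mouse left ventricles was used. By the study's methods, stranded paired-end mRNA libraries were made by a sequencing company, and the submitters' processing notes name CASAVA 1.8, HISAT2, SAMtools 1.3.1, edgeR and GRCm39. The authors deposited 1 matrix with a raw count per gene and library, not normalized, and an FPKM, the count divided by gene length and library total. All 24 value columns were matched to samples by name, and 0 were left unmatched. The strand setting of the counting and the annotation release are not given in the sources used here.

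Counts were filtered with edgeR's filterByExpr by group, scaled by TMM and fitted over 12 libraries and 4 groups with edgeR 4.0.16 (glmQLFit, glmQLFTest, R 4.3.3), with p-values adjusted by Benjamini-Hochberg over 16101 genes. The 95% intervals come from the fitted fold change and its SE. FPKM were used for levels and within-library ratios, which were compared by two-sided exact permutation tests (scipy 1.17.1). The scripts were tested on simulated data. Alternatives were DESeq2 1.42.0, RLE normalization, no filter, the compared groups alone, a replicate block, and leaving out each library. The members, gene lists and tests were chosen with earlier results of these data known. Named genes were the 9 members, Adam17, the gene of each of 8 pathway lists with the smallest p for doxorubicin in A17fl/fl, and the 3 genes most like Map3k7; the genes most like other members, in the closing observations, were added after their values were seen. Marker lists are given as sums. Total counts per library limit the precision, and the error of the estimates covers both counting and mice.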

Additional observations from a re-analysis of the deposited data

How the results depend on the processing

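Across the 45 log2 differences of the members, RLE normalization, no filter on low counts and the replicate block kept the direction and side of the threshold of 45, and fitting only the compared groups those of the 36 pairwise ones. DESeq2 kept 44. The other was Tab1 for doxorubicin in A17fl/fl, so that 1 member had an adjusted p under 0.05 there with DESeq2, against 0 with edgeR, and the cause was not tested. The share of all tested genes below that threshold with DESeq2 is not given, so this count cannot be set against one. Replicate numbers were not taken to pair the mice: deviations of same-numbered libraries correlated by -0.10 to 0.22, with 3 of 18 pairs over 0.1. With the replicate block the Tab1 effect of doxorubicin in A17fl/fl was 0.73 with an adjusted p of 0.349 in edgeR, and the block changed no call. RLE in place of TMM scaling, an alternative chosen after seeing the data, kept the counts of members without overlap.

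Leaving out 1 library at a time, the members with an unadjusted p under 0.05 numbered 1 to 2 for doxorubicin in A17fl/fl and 0 to 1 for the interaction. For doxorubicin in A17fl/fl, Tab3 joined Tab1 without A17fl/fl + NS replicate 2, and Mapk14 joined it without replicate 3. The shares of all tested genes in these fits are not given. Other differences, none of them below the threshold with all libraries, changed sign. For doxorubicin in A17fl/fl these were Map3k7 (-0.26 to 0.086), Map3k5 (-0.14 to 0.43), Mapk9 (-0.010 to 0.11), Mapk3 (-0.058 to 0.10) and the log2 ratio of Tab2 to Map3k7 (-0.24 to 0.19). For doxorubicin in A17α-MHCKO they were Map3k7 (-0.25 to 0.067), Tab3 (-0.16 to 0.043), Map3k5 (-0.045 to 0.34), Mapk8 (-0.086 to 0.032), Mapk14 (-0.35 to 0.29) and the ratios of Tab2 to Map3k7 (-0.39 to 0.23), Tab3 to Tab2 (-0.040 to 0.32), Mapk8 to Mapk9 (-0.019 to 0.22) and Mapk14 to Mapk3 (-0.36 to 0.17). For the genotype after saline they were Map3k7 (-0.17 to 0.17), Tab3 (-0.17 to 0.31), Map3k5 (-0.30 to 0.27), Mapk14 (-0.033 to 0.85), Mapk3 (-0.058 to 0.10) and the ratios of Tab2 to Map3k7 (-0.33 to 0.099), Tab3 to Tab2 (-0.091 to 0.45), Mapk8 to Mapk9 (-0.0037 to 0.12) and Mapk14 to Mapk3 (-0.042 to 0.74). For the genotype after doxorubicin they were Map3k7 (-0.18 to 0.16), Tab1 (-0.098 to 0.17), Map3k5 (-0.13 to 0.051), Mapk8 (-0.062 to 0.056) and the ratios of Tab1 to Map3k7 (-0.24 to 0.30), Tab2 to Map3k7 (-0.49 to 0.13), Tab3 to Tab2 (-0.24 to 0.11) and Mapk8 to Mapk9 (-0.049 to 0.19). For the interaction they were Map3k7 (-0.20 to 0.14), Tab2 (-0.18 to 0.096), Map3k5 (-0.34 to 0.23) and Mapk3 (-0.035 to 0.13). With 3 mice per group the interval of Mapk14 held a doubling in 3 of the 4 pairwise comparisons, so a change of that size was not excluded there. In the other, the genotype after doxorubicin, it held a halving.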

Other observations

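The search for genes with a like pattern was extended from Map3k7 to the other 8 members after the values were seen. It used the same 12 libraries, in which differences of group, extraction and depth were not separated, and no test was made. Map3k5 had the closest partners: Vwa8 (Pearson r = 0.97), Slc2a8 (r = 0.96), a sugar transporter gene, and Tmem131l (r = 0.95). Vwa8 ranged from 94.2 to 357 CPM. Without A17fl/fl + NS replicate 1 these values were 0.94, 0.93 and 0.91. For Mapk8 the closest were Uba7 (r = 0.90), which encodes the activating enzyme of the interferon-induced modifier ISG15, and H2-DMb1 (r = 0.88), an antigen presentation gene, both of which spanned a wider range (16.9 to 46.3 and 7.08 to 22.4 CPM) than Mapk8 did. For Tab1 they were Ears2 (r = 0.96), Mid1 (r = 0.93) and Casp2 (r = 0.93), and Casp2, a caspase gene, ranged from 2.94 to 11.2 CPM. For Mapk14 the highest r was 0.85, with Dennd2c. These are the highest of 16100 values for each member.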
